A study of Mus musculus with 7 samples.

Results

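The DNA replication genes described here are 36 named genes of the replication machinery, its regulators and its nucleotide supply. They were chosen by name from a list of symbols, out of 23955 gene names in the deposited count table. Earlier results of these data were known when the list was chosen. All 36 genes had enough counts to be tested. They cover the replicative helicase (Mcm2 to Mcm7, Cdc45, Gins1, Gins2, Gins3), factors that load and start it (Cdc6, Cdt1, Mcm10), the transcription factors E2f1 and E2f2, polymerases and primase (Pola1, Pola2, Prim1, Pole), the sliding clamp and lagging-strand enzymes (Pcna, Rfc3, Rfc4, Fen1, Lig1, Rpa2), nucleotide supply (Rrm1, Rrm2, Tyms, Tk1, Dut), chromatin and histone supply (Chaf1a, Chaf1b, Uhrf1, Slbp) and repair of replicated DNA (Ung, Msh6).

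The study measured polyadenylated RNA in cell lines of mouse esophageal epithelium that differ in the tumour suppressor p53. There were 2 wild-type lines (WT 1, WT 2), 3 lines with the p53R172H mutation (mutant 1, 2 and 3) and 2 p53-/- lines (null 1, null 3), all of mixed strain background and grown on plastic in KSFM medium. Every mutant and every null line also has 4NQO, a carcinogen that damages DNA, as its treatment in the labels, and the WT lines have no treatment label, so in both comparisons with WT the genotype and 4NQO cannot be told apart. The labels say neither how 4NQO was given, nor whether a line is 1 clone, nor whether the lines of a group derive from different mice, so each p-value is set against the line-to-line spread alone.

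Replication starts when Cdc6 and Cdt1 load the ring of Mcm2 to Mcm7 onto origins, which is called licensing, and Cdc45 and the Gins complex then turn that ring into the working helicase. Most of these genes are transcribed in a wave before and during S phase under the E2F factors, which the retinoblastoma proteins hold in check, and p53 restrains the same wave through the cell cycle inhibitor p21. The RNA level of these genes in a culture thus also depends on how many of its cells are cycling, which was not measured here. In bulk RNA, fewer cycling cells and less replication RNA per cycling cell cannot be told apart.

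The promoter stretches of 5 members are shown because these genes carry the largest or most reproducible differences below or stand for their role. They run from 250 bases before to 50 bases after the annotated start, read 5′ to 3′ along the gene, and come from RefSeq on GRCm38.p6, which is not the mm9 build named for the deposited counts. Capitals mark matches, on either strand, to the E2F-like word TTTNNCGC (NN is any 2 bases) and to CCAAT. The stretches are Slbp at chr5:33652525-33652824 (minus strand), E2f2 at chr4:136172024-136172323 (plus), Cdc6 at chr11:98907901-98908200 (plus), Mcm3 at chr1:20820263-20820562 (minus) and Rrm2 at chr12:24708004-24708303 (plus).
Slbp: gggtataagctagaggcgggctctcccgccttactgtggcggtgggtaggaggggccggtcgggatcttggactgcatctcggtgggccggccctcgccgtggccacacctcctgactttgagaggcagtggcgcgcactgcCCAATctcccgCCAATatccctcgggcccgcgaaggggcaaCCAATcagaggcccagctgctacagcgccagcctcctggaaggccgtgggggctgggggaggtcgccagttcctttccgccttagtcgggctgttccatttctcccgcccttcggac
E2f2: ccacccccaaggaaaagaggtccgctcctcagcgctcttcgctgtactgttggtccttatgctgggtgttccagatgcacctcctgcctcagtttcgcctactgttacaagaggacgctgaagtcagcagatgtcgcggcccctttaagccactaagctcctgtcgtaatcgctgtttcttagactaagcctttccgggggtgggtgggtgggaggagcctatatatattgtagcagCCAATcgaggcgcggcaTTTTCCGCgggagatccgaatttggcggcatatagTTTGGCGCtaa
Cdc6: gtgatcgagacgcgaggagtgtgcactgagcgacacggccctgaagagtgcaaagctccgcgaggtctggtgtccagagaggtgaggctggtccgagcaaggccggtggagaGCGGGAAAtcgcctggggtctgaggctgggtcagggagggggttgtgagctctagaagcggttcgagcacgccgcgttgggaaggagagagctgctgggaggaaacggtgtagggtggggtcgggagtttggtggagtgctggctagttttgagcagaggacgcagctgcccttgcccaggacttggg
Mcm3: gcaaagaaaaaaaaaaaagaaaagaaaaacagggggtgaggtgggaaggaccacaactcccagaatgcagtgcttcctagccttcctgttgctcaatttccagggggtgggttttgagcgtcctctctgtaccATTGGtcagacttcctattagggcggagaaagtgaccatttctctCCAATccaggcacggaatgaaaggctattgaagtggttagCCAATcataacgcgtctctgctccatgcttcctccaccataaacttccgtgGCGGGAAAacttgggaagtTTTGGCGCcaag
Rrm2: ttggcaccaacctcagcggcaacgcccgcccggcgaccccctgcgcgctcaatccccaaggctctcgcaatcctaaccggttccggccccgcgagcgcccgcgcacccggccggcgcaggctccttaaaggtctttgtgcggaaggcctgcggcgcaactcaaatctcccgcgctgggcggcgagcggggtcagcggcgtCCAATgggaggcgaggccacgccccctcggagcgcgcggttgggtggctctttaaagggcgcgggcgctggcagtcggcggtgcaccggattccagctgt

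The E2f2 stretch shown held 2 E2F-like words, at positions 5 to 12 and 40 to 47 counted from the start, and a CCAAT word at -13 to -9. A further E2f2 stretch in RefSeq, at chr4:136180532-136180831 (plus), held 0 E2F-like words and 3 CCAAT words. The Mcm3 stretch also held 2 E2F-like words downstream of the start, at 20 to 27 and 39 to 46, beside 3 CCAAT words. Cdc6 had 1 E2F-like word, at -138 to -131, whereas the Slbp stretch had 3 CCAAT words between -108 and -63 and no match to TTTNNCGC, and Rrm2 had 1 CCAAT word at -50 to -46. RefSeq gave a promoter for 32 of the 36 members, 38 stretches in all, and none was matched for Gins1, Gins2, Mcm4 and Pole. The word TTTNNCGC occurred in 15 of these 38 stretches (39.5%) against 5.17% of 32851 promoters of the same length in the table, and 14 of its 22 matches lay between 100 bases before and 50 bases after the start. CCAAT occurred in 60.5% of member stretches against 37.4% of all promoters. The helicase genes were the richest role with 5 or more promoters: 5 of 8 stretches held TTTNNCGC and 8 of 8 held CCAAT. A word of the CHR element found in promoters of mitotic genes, TTTGAA, occurred in 13.2% of member stretches, 17.9% of all promoters and 78.3% of 23 promoters matched to 22 of 26 mitosis genes. In Mcm7, 1 E2F-like match overlapped a CCAAT match. A match is a run of letters and does not show that a factor binds there.

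The libraries held 12751118 (WT 2) to 47000225 (mutant 1) counts, and the lowest count of any member in any library was 12, for E2f2 in WT 2. Trp53, which encodes p53, was at 212 and 193 CPM (counts scaled to library size) in WT 1 and WT 2. The mutant lines were at 172, 250 and 254 CPM. Null 1 and null 3 were at 8.73 and 4.71 CPM, so the Trp53 level went with the null label. The mutant lines overlapped WT, and a gene count does not show the p53R172H mutation. The epithelial markers Krt5, Krt14, Trp63, Cdh1 and Epcam were present in all 7 libraries. The summed level of the 9 epithelial markers, most of it Krt5 and Krt14, was 27029 and 37594 CPM in WT and 5837 to 9953 CPM in the other lines. Single markers differed, with 6 of 9 wholly below WT in the mutant lines and 5 in the null lines. In mutant against WT, Trp63 was level (log2 fold change -0.004) and Sox2 higher (0.74). In null against WT, Cdh1 and Epcam were near level (-0.11 and -0.18) and Krt4 was higher (0.60). Of 8 fibroblast markers, 6 could be tested, and their summed level reached 567, 376 and 420 CPM in mutant 1, mutant 3 and null 3 but 5.61 to 9.73 CPM in the other 4 libraries, with Lum at 1 count or fewer in every library. Ptprc, Csf1r, Cd3e and Itgam, of 5 immune markers, were at 9 counts or fewer, while the fifth, Cd68, a lysosomal protein of macrophages that other cells also make, was at 74.1 and 78.9 CPM in WT, 48.1 to 91.8 CPM in the mutant lines and 32.1 and 22.5 CPM in the null lines. The 4 endothelial markers summed to at most 2.05 CPM. The 5 smooth muscle markers summed to 29.3 CPM in null 1, 152 and 280 CPM in WT and 167 to 812 CPM in the others, most of it Acta2. The part of these markers in the results below was not tested.

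As a set, the replication genes stood lowest in null 1 and were highest in a mutant line or in WT 2. Null 1 was the lowest of the 7 libraries for 29 of the 36 members (80.6%), against 16.3% of all 13768 genes tested, and it lay below null 3 for 35 of 36. WT 1 lay below WT 2 for 35 of 36 members as well, against 50.9% of all genes. The highest library was a mutant line for 23 members (63.9%, against 42.7% of all genes) and WT 2 for the other 13 (36.1%, against 20.3%). Each member was set on a log2 scale against its own mean in the 2 WT libraries after adding 0.5 CPM. The median member was then at -0.31 in WT 1 and 0.31 in WT 2, at 0.33, 0.22 and 0.17 in mutant 1, 2 and 3, at -0.86 in null 1 and at -0.24 in null 3. The gap between the WT lines was thus wider than the gap between any mutant line and WT 2, and mutant 1 lay nearer to WT 2 than to the other mutant lines. Null 1 also stood lowest for 26 mitosis genes, whose mean log2 ratio to the WT level stood at -2.78 in null 1, -0.62 in null 3, -0.49 and 0.49 in WT 1 and WT 2, and 0.11, -0.40 and 0.14 in the mutant lines. Mki67, a marker of cycling cells, measured 14.6 and 98.0 CPM in null 1 and null 3, 99.8 and 225 CPM in WT, and 152 to 187 CPM in the mutant lines. Its part, and that of the mitosis genes, in the results below was not tested.

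**Figure D1:**
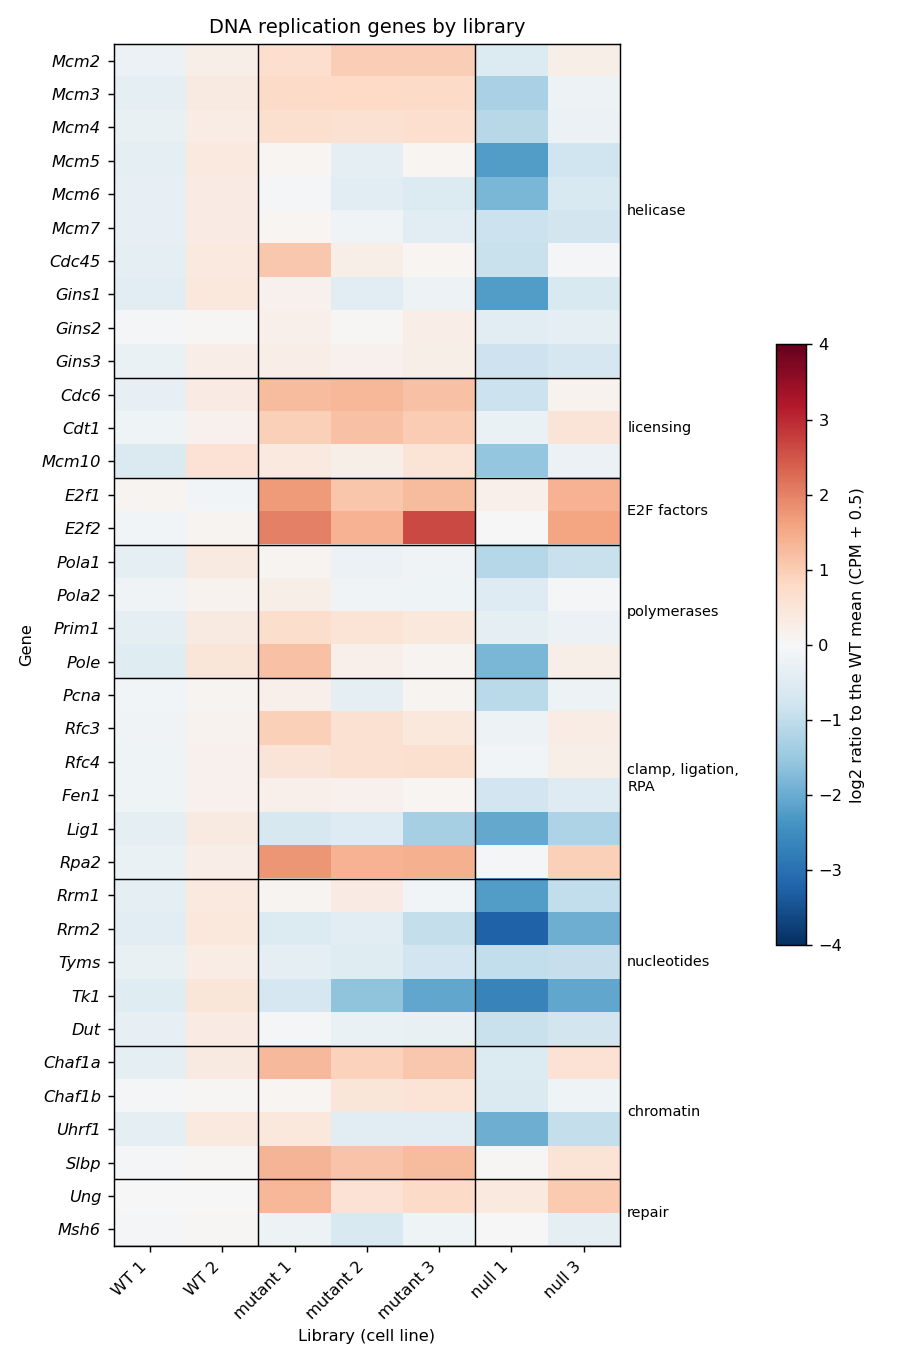
Log2 ratio of each of the 36 replication genes (rows, grouped by role) to its mean in the 2 WT libraries, computed on CPM + 0.5, in each of the 7 cell lines (columns). Null 1 is the lowest column for 29 genes, and E2f1, E2f2 and Rpa2 stand out as high in all 3 mutant lines while Tk1, Rrm2 and Lig1 are low in them.

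Mutant against WT asks how the p53R172H lines, all of them 4NQO lines, differ from WT lines without that label. The members differed in direction, also within a role. Slbp rose 2.41-fold, the transcription factors E2f1 and E2f2, the licensing factors Cdc6 and Cdt1 and the single-strand binding subunit Rpa2 were higher in all 3 mutant lines than in both WT lines without passing the test, and genes of nucleotide supply were level or lower. Of the 36 members, 1 was called higher (adjusted p under 0.05, edgeR's quasi-likelihood test with Benjamini-Hochberg adjustment over all genes tested), where 3.30% of all genes were called higher. None was called lower, where 4.13% of all genes were (7.42% in either direction). At an unadjusted p under 0.05 there were 11 members higher and 1 lower, against 15.9% and 14.6% of all genes. The mutant libraries lay wholly above WT for 16 members, against 26.9% of all genes, and wholly below for 5, against 25.7%. The median log2 fold change was 0.26 over the members and 0.08 over all genes, and 22 members were above 0 (54.4% of all genes were). Read against these shares, the edgeR calls are near the background, the 16 members above WT and the 11 at an unadjusted p exceed it, and fewer members lay below WT than the background share. The excess was smaller without WT 1, where the count above WT stayed at 16 while 36.5% of all genes lay above, 4 members were higher at an unadjusted p under 0.05, and the median of 0.04 was under the 0.13 of all genes. Without WT 2 the count was 25, where 34.4% of all genes lay above. The number called depended on the method. DESeq2 called 9 members (8 higher, 1 lower), beside 1710 higher and 1477 lower of 13768 genes. A fit of only the mutant and WT libraries called 5 members, all higher, beside 732 higher and 789 lower of 13425 genes.

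Slbp encodes the stem-loop binding protein, which binds the end of replication-dependent histone mRNAs and is needed to process and translate them. Its level was 26.9 and 28.1 CPM in WT 1 and WT 2, 71.6, 60.9 and 66.2 CPM in mutant 1, 2 and 3, and 28.7 and 40.0 CPM in null 1 and null 3. The mutant lines stood apart from the other 4 lines with no overlap, and null 1 was next to WT. The log2 fold change against WT was 1.27 (SE 0.202, adjusted p = 0.0261, higher in 3 of 3 mutant lines than in either WT line). It lay between 1.19 and 1.31 under 16 alternatives and kept its call in 11 of them. Of the 5 that ended it, 4 left out a library, namely WT 1 (adjusted p = 0.130), WT 2 (0.202), mutant 2 (0.0693) or mutant 3 (0.0865), and the other was a fit with line number as a term (0.125). In GENCODE vM21, 7.80% of its exonic bases also lie in exons of a gene on the opposite strand.

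Both transcription factors had larger fold changes than Slbp, with larger errors. E2f1, an activator of the S-phase genes, was at 18.5 and 16.2 CPM in WT, 57.2, 37.9 and 42.4 CPM in mutant 1, 2 and 3, and 20.1 and 46.4 CPM in null 1 and null 3. All mutant lines and null 3 stood well above WT, while null 1 stood just above it. The log2 fold change of E2f1 in mutant lines was 1.40 (SE 0.391, adjusted p = 0.0730). E2f2, a second activator, was at 0.782 and 0.974 CPM in WT, 5.11, 3.11 and 8.14 CPM in the mutant lines, and 0.882 and 3.64 CPM in null 1 and null 3. The mutant lines again lay above both WT lines, scattered among themselves, and null 1 lay between the WT lines. The log2 fold change of E2f2 was 2.64 (SE 0.813, adjusted p = 0.0898), the largest of the 36 and not called.

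Of the licensing and loading genes, Cdt1, which brings the Mcm ring to the origin, was at 41.7 and 53.9 CPM in WT, 92.6, 107 and 97.5 CPM in the mutant lines, and 39.5 and 68.8 CPM in null 1 and null 3. Cdc6, the ATPase that works with it, was at 5.85 and 9.34 CPM in WT, 18.7, 19.2 and 17.4 CPM in the mutant lines, and 3.83 and 8.12 CPM in the null lines. Both genes were higher in every mutant line than in any other line. Their log2 fold changes against WT were 1.05 (SE 0.266, adjusted p = 0.0599) for Cdt1 and 1.28 (SE 0.411, adjusted p = 0.0970) for Cdc6. Mcm10, which helps switch the helicase on, was at 8.61 and 19.97 CPM in WT and 17.3, 15.7 and 19.5 CPM in the mutant lines, so its mutant levels lay within the WT range.

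The 6 subunits of the Mcm ring did not move as a block. Mcm4 was at 77.5 and 116 CPM in WT, 149, 143 and 152 CPM in the mutant lines and 43.6 and 80.1 CPM in null 1 and null 3. Mcm2 (136 to 172 CPM against WT levels of 72.0 and 102 CPM) and Mcm3 (136 to 138 CPM against 62.7 and 102 CPM) also lay above WT in every mutant line. Mcm5 instead was at 58.6 and 99.6 CPM in WT and 81.0, 59.2 and 81.0 CPM in the mutant lines, and the mutant ranges of Mcm6 (67.4 to 96.8 CPM) and Mcm7 (56.5 to 82.8 CPM) also overlapped WT. The log2 fold changes were 0.88, 0.73 and 0.62 for Mcm2, Mcm3 and Mcm4 and -0.10, -0.37 and -0.19 for Mcm5, Mcm6 and Mcm7, and none passed the test. Of the remaining helicase genes, Gins2 lay above WT in all mutant lines (log2 fold change 0.19), while Cdc45, Gins1 and Gins3 overlapped WT.

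Among polymerases and fork factors, Rpa2 had the largest difference. Rpa2, a subunit of the protein that coats single-stranded DNA, was at 7.55 and 11.3 CPM in WT, 32.4, 25.3 and 25.7 CPM in the mutant lines and 8.89 and 18.6 CPM in null 1 and null 3. Every mutant line exceeded the WT lines by more than the distance between the WT lines (log2 fold change 1.56, SE 0.390, adjusted p = 0.0590). The clamp loader subunits Rfc3 and Rfc4 were also above WT in all mutant lines (log2 fold changes 0.68 and 0.59, adjusted p = 0.151 and 0.133), whereas Pcna, the clamp they load, was at 136, 88.4 and 126 CPM in the mutant lines around WT values of 108 and 127 CPM. Lig1, the ligase that seals Okazaki fragments, was at 39.2 and 65.3 CPM in WT and 32.1, 35.2 and 19.7 CPM in the mutant lines, below WT in all of them (log2 fold change -0.85, SE 0.380, adjusted p = 0.186). Of the polymerase genes, Prim1 lay above WT (29.3 to 35.8 CPM against 17.0 and 28.3 CPM), and Pola1, Pola2 and Pole overlapped it.

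In the nucleotide supply group, 3 of 5 genes lay below WT in all mutant lines. Tk1, thymidine kinase of the salvage path, was at 23.5 and 46.0 CPM in WT, 20.4, 10.4 and 7.48 CPM in mutant 1, 2 and 3, and 4.72 and 7.44 CPM in null 1 and null 3. Mutant 1 sat just below WT 1 and the other altered lines far below. The log2 fold change of -1.44 (SE 0.504, adjusted p = 0.114) was the lowest of the 36 members. Tyms, which makes thymidylate, and Rrm2, the regulated subunit of ribonucleotide reductase, were also below WT (log2 fold changes -0.57 and -0.70, adjusted p = 0.212 and 0.296), while Rrm1, the other subunit, and Dut, which clears dUTP, overlapped WT.

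Of the chromatin genes, Chaf1a, the large subunit of the histone chaperone CAF-1, was at 97.7, 75.7 and 84.0 CPM in the mutant lines against 31.0 and 50.7 CPM in WT (log2 fold change 1.07, adjusted p = 0.118). In the same annotation 52.5% of its exonic bases, and 67.3% of those of Gins2 and 84.2% of those of Fen1, are shared with a gene on the opposite strand, and no source used here gives the strand setting of the counting, so values of these 3 genes are uncertain. Ung, the glycosylase that removes uracil from DNA, was at 13.9 and 14.3 CPM in WT, 36.3, 21.5 and 24.5 CPM in the mutant lines and 18.7 and 29.4 CPM in null 1 and null 3, above WT in every altered line (log2 fold change 0.96 in mutant, SE 0.323, adjusted p = 0.107). Chaf1b also lay above WT (log2 fold change 0.39), Uhrf1 overlapped it, and the mismatch repair gene Msh6 lay below it (log2 fold change -0.31).

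**Figure D2:**
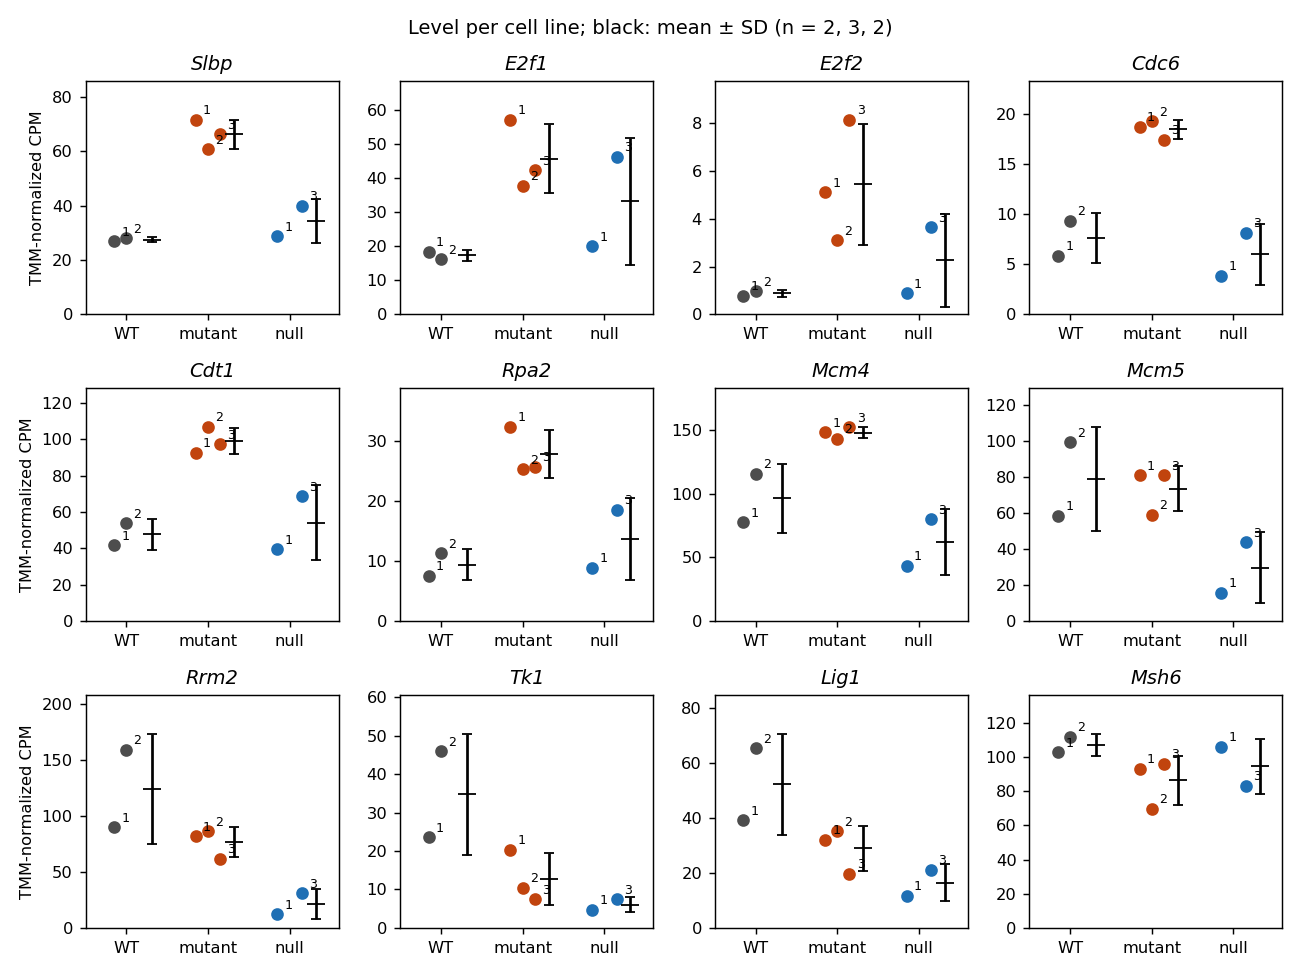
TMM-normalized CPM of 12 replication genes in each cell line (points, numbered by line), with mean ± SD in black for WT (n = 2), mutant (n = 3) and null (n = 2). Slbp, Cdc6, Cdt1, Rpa2 and Mcm4 are higher in the 3 mutant lines than in any other line, and Rrm2, Tk1 and Lig1 are highest in WT 2.

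Null against WT asks the same question of the p53-/- lines, again 4NQO lines, and shares its WT libraries with the comparison above. Here the members were mostly lower: 27 of 36 had a log2 fold change below 0, where 46.4% of all genes did, 9 were above 0 (53.6% of all genes), and the median was -0.56 against 0.06 over all genes. No member was called by edgeR's quasi-likelihood test, where 0.0726% of all genes were called higher and 0.0654% lower. At an unadjusted p under 0.05, 12 members were lower and 0 higher, against 9.01% and 11.2% of all genes. DESeq2 called 8 members lower and 0 higher, beside 632 lower and 882 higher of 13768 genes. Both null libraries lay below both WT libraries for 17 members, against 27.1% of all genes, and above them for 3 (E2f1, Slbp, Ung), against 29.1%. The size depended on null 1 and on WT 2. The median was -0.28 without null 1, -0.31 without WT 2 and -0.92 without null 3. At an unadjusted p under 0.05, 5 members were lower and 5 higher without null 1, and 3 were lower and 0 higher without WT 2, where 13 members were above 0. The count of members wholly below WT was 18 without null 1, where 40.3% of all genes lay below, 29 without null 3 (39.3%) and 27 without WT 1 (36.4%).

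The 5 nucleotide supply genes were the only role in which every member lay below WT in both null lines. Rrm2 was at 89.6 and 159 CPM in WT, 82.0, 86.2 and 61.9 CPM in the mutant lines, and 12.2 and 30.7 CPM in null 1 and null 3. Both null lines lay far below all other lines. Its log2 fold change against WT was -2.54 (SE 0.490, 5.80-fold lower, adjusted p = 0.0995), the lowest of the members. Tk1 followed with -2.51 (SE 0.593, adjusted p = 0.123), then Rrm1 with -1.53 (48.0 and 114 CPM in null 1 and null 3 against 173 and 297 CPM in WT, adjusted p = 0.155), Tyms with -1.02 and Dut with -0.85. The median of the 5 genes was -1.53.

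In the helicase group 6 of 10 genes lay below WT in both null lines, namely Mcm5, Mcm6, Mcm7, Gins1, Gins2 and Gins3. Mcm5 was at 15.8 and 43.8 CPM in null 1 and null 3 against 58.6 and 99.6 CPM in WT (log2 fold change -1.41, SE 0.497, adjusted p = 0.200). Mcm2 was at 58.7 and 102 CPM in null 1 and null 3, which spanned nearly the WT range of 72.0 to 102 CPM (log2 fold change -0.12). Lig1 was at 11.8 and 21.1 CPM in null 1 and null 3, well below WT (log2 fold change -1.66, adjusted p = 0.136). Pola1, the catalytic subunit of the priming polymerase, was at 31.0 and 51.6 CPM in WT, 43.3, 34.1 and 36.5 CPM in the mutant lines and 17.9 and 21.6 CPM in null 1 and null 3. Both null lines lay below every other line (log2 fold change -1.07, SE 0.291, adjusted p = 0.142).

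Pcna, Fen1, Chaf1b and Uhrf1 also lay below WT in both null lines, with log2 fold changes of -0.58, -0.66, -0.38 and -1.43. E2f1 and E2f2 had log2 fold changes of 0.94 (SE 0.413, adjusted p = 0.262) and 1.37 (SE 0.820, adjusted p = 0.376), with null 3 the higher of the null lines for both. Ung was above WT in both null lines (0.77, SE 0.346, adjusted p = 0.270), as was Slbp (0.32, SE 0.212, adjusted p = 0.417). Cdt1, Rfc3, Rfc4 and Chaf1a were within 0.2 of WT on the log2 scale with their libraries overlapping, and Rpa2 was at 0.55 with overlap.

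Mutant against null compares lines that all carry the 4NQO label and differ in the p53 label, and here 35 of 36 members were higher in mutant. The median log2 fold change was 0.95, a 1.93-fold difference, against 0.02 over all genes, and 51.3% of all genes were above 0 and 48.7% below. All 26 mitosis genes were above 0 as well, with a median of 1.31. All mutant libraries lay above both null libraries for 28 members, against 16.0% of all genes, and 0 lay wholly below, against 15.1%. At an unadjusted p under 0.05 there were 21 members higher and 0 lower, against 6.35% and 7.63% of all genes. With adjustment, edgeR's quasi-likelihood test called none of the members and 0 of 13768 genes (1924 genes at an unadjusted p under 0.05), so percent called is 0 in both directions, and DESeq2 called 590 genes, 8 of them members and all higher. Without null 1 the median was 0.59, 7 members were higher at an unadjusted p under 0.05, and 28 members still lay above null 3, where 26.1% of all genes did. Without null 3 the median was 1.32 and 35 members lay above null 1, where 32.4% of all genes did.

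Every one of the 10 helicase genes lay above both null lines in all 3 mutant lines. The largest log2 differences among them were those of Mcm3 (1.42) and Mcm5 (1.31), and the smallest was that of Gins2 (0.59). Mcm4 had the smallest p, at 1.26 (SE 0.299, adjusted p = 0.270). In nucleotide supply, Rrm2 had the largest difference of all members, 1.84 (SE 0.453, 3.58-fold, adjusted p = 0.272), and Rrm1 was at 1.60 (SE 0.424, adjusted p = 0.276). Cdc6 was 1.63 higher (SE 0.416, adjusted p = 0.275), Slbp 0.95 (SE 0.198, adjusted p = 0.258) and Uhrf1, which carries DNA methylation through replication, 1.27 (SE 0.458, adjusted p = 0.317).

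Fen1, the flap nuclease of the lagging strand, was at 47.7, 46.8 and 43.6 CPM in the mutant lines, 23.9 and 28.8 CPM in the null lines and 36.3 and 47.3 CPM in WT. The mutant lines were tightly grouped and at the upper end of WT, the null lines below both (log2 fold change 0.81 against null, SE 0.193, adjusted p = 0.272). The 8 members whose mutant and null libraries overlapped were E2f1, E2f2, Pola2, Pole, Pcna, Lig1, Ung and Msh6. Msh6 was the single member below 0: it was at 93.2, 69.8 and 96.0 CPM in the mutant lines, 106 and 83.2 CPM in null 1 and null 3 and 103 and 112 CPM in WT, a range in which no group stood apart from null (log2 fold change -0.13, SE 0.195, adjusted p = 0.787).

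**Figure D3:**
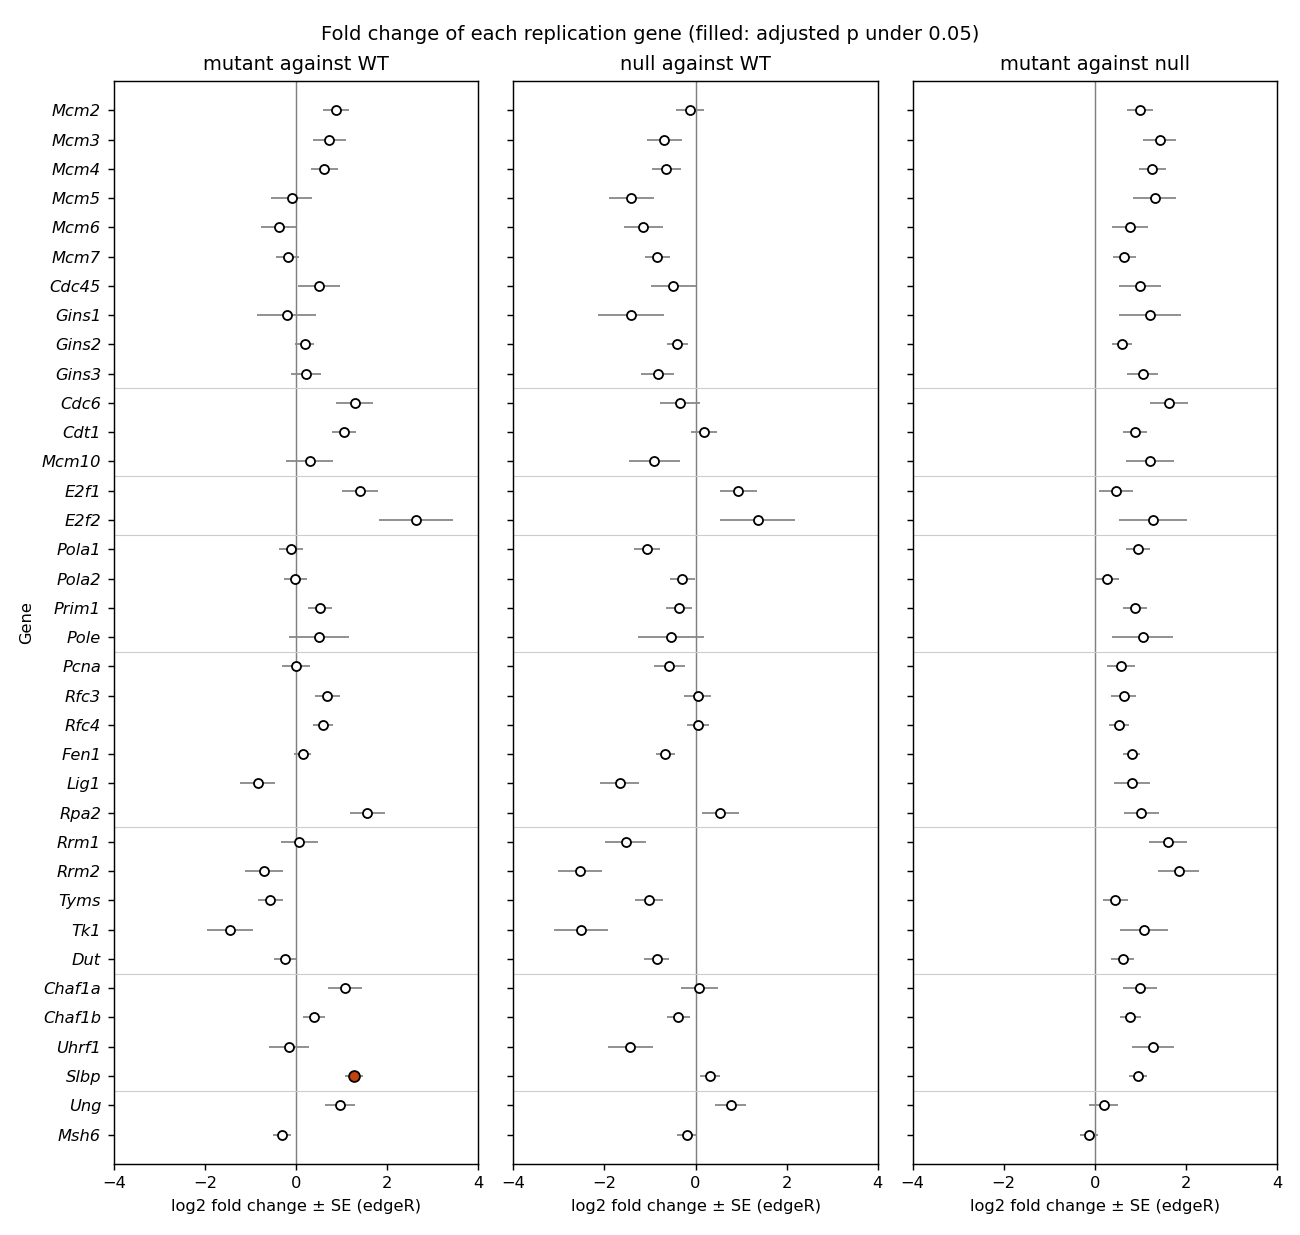
Log2 fold change ± SE (edgeR) of each of the 36 replication genes, ordered by role, for mutant against WT, null against WT and mutant against null; a filled point has an adjusted p under 0.05. Slbp in mutant against WT is the single filled point, 27 genes are below 0 in null against WT and 35 are above 0 in mutant against null.

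Most members were higher or lower together between the WT lines and between the null lines. Members were therefore also compared with each other within a library, by subtracting the median of the 36 log2 ratios in that library. This removes a shift shared by most members and leaves their relative order. On this scale 14 members were higher in all mutant lines than in both WT lines and 11 were lower, where 9.28% and 29.5% of all genes were. The 14 were Mcm2, Mcm3, Mcm4, Cdc6, Cdt1, E2f1, E2f2, Prim1, Rfc3, Rfc4, Rpa2, Chaf1a, Slbp and Ung. The 11, near the share of all genes, were Mcm5, Mcm6, Mcm7, Gins1, Pola1, Lig1, Rrm2, Tyms, Tk1, Dut and Msh6. Subtracting the median places members on both sides by design, and Mcm5, Mcm6 and Mcm7 overlapped WT before it. It can also narrow the gap between the WT lines. For Mcm6, WT 1 and WT 2 were at -0.32 and 0.32 before it and at -0.01 and 0.01 after. Null against WT, with the same WT libraries, gave 11 higher and 10 lower, where 42.1% and 5.73% of all genes were, since subtracting a low median moves most other genes up.

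Rpa2 and Tk1 show the size of this. Relative to the library median, Rpa2 was at 1.43, 1.18 and 1.26 in mutant 1, 2 and 3 and at 0.81 and 1.20 in null 1 and null 3, against 0.04 and -0.04 in WT. Tk1 was at -1.01, -1.84 and -2.23 in the mutant lines and -1.82 and -1.84 in the null lines, against -0.16 and 0.16 in WT. Null 1, the lowest library for most members in absolute terms, was level with null 3 for Tk1. Other members kept the null lines apart on this scale, such as Pole (-0.96 in null 1, 0.47 in null 3), Msh6 (0.85 and -0.13), Mcm5 (-1.38 and -0.56) and Rrm2 (-2.38 and -1.71). Between mutant and null, 7 members were wholly higher on this scale (Mcm3, Mcm4, Cdc6, Mcm10, Rrm1, Rrm2, Uhrf1) and 3 wholly lower (Pola2, Ung and Msh6, whose libraries overlapped before the subtraction), where 1.11% and 61.0% of all genes were, and 26 overlapped. These values are a description on a scale set by the members themselves, with no test.

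**Figure D4:**
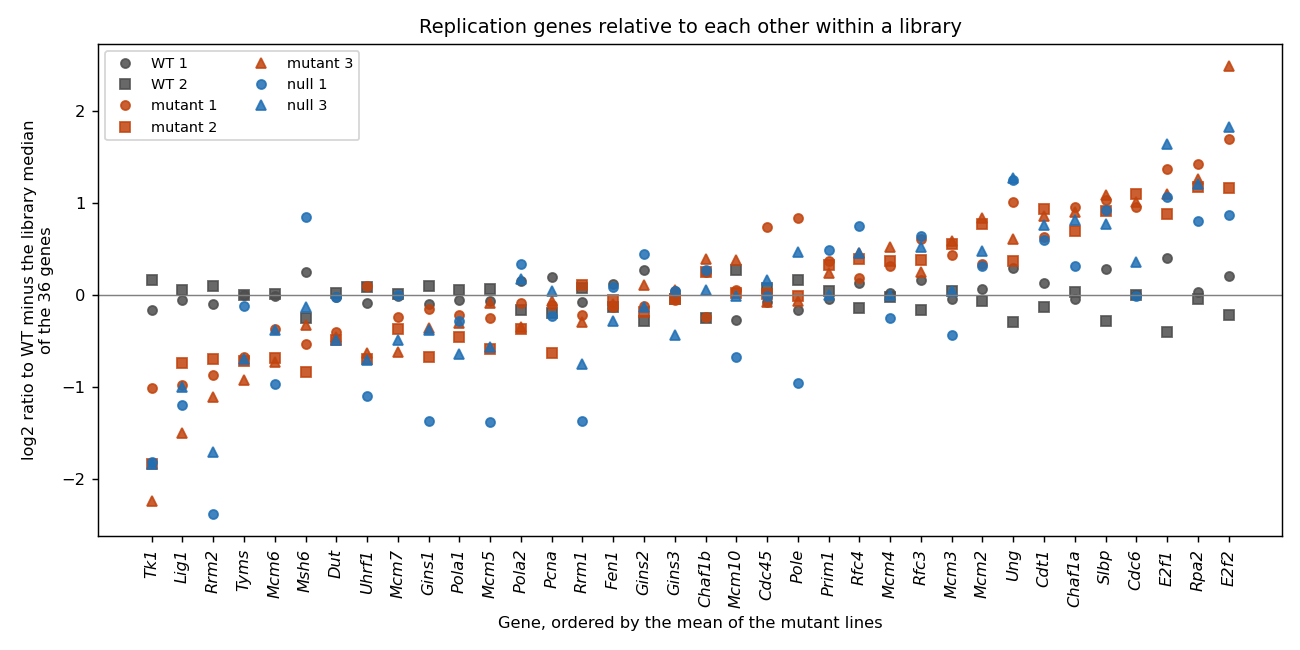
Log2 ratio to WT of each replication gene minus the median of the 36 genes in the same library, one point per cell line, genes ordered by the mean of the mutant lines. Tk1, Lig1 and Rrm2 lie lowest and E2f1, Rpa2 and E2f2 highest in the mutant lines.

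A further 68 genes of replication and its control, among them origin recognition, polymerase delta, cyclins and further E2Fs, were all tested. In mutant against WT, 3 of 68 rose and 1 fell, where 3.30% and 4.13% of all genes did. Ccne2, the cyclin E2 that starts S phase with Cdk2, was at 7.08 and 9.74 CPM in WT, 29.9, 30.6 and 23.9 CPM in the mutant lines and 7.73 and 12.04 CPM in null 1 and null 3, and rose by 1.75 on the log2 scale (SE 0.313, edgeR adjusted p = 0.0324). Only the mutant lines were high, with the null lines at or just above WT. Dck, which phosphorylates deoxycytidine, was at 28.4 and 27.2 CPM in WT, 64.9, 55.9 and 62.1 CPM in the mutant lines and 46.1 and 55.1 CPM in the null lines, and rose by 1.13 (SE 0.168, edgeR adjusted p = 0.0243).

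E2f3, another activating E2F, was at 31.5 and 37.2 CPM in WT, 60.1, 61.0 and 57.7 CPM in the mutant lines and 47.1 and 53.5 CPM in the null lines, and rose by 0.80 (SE 0.161, edgeR adjusted p = 0.0387). Dctd, which deaminates dCMP, fell by 1.75 (SE 0.383, edgeR adjusted p = 0.0454), from 57.8 and 93.7 CPM in WT to 32.9, 18.4 and 16.1 CPM in the mutant lines, with 34.2 and 23.0 CPM in the null lines. For Dck, E2f3 and Dctd all 5 altered lines lay on one side of WT. Like that of Slbp, the calls of Ccne2, E2f3, Dck and Dctd ended without WT 1, WT 2, mutant 2 or mutant 3 (adjusted p = 0.0657 to 0.275 over these).

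In null against WT none of the 68 was called by edgeR. The median was -0.24 (0.06 over all genes) and 21 were above 0 (53.6% of all genes were). DESeq2 called 7 of them, beside 1514 of all 13768 genes. At an unadjusted p under 0.05 in edgeR, 2 were higher and 13 lower, against 11.2% and 9.01% of all genes. The smallest p values were those of Dck (log2 fold change 0.86, adjusted p = 0.106) and of Pole2, a subunit of polymerase epsilon, which was at 1.55 and 6.04 CPM in null 1 and null 3 against 18.1 and 34.6 CPM in WT (log2 fold change -2.80, adjusted p = 0.126). In mutant against null none was called by edgeR either, and 4 were called by DESeq2, beside 590 of all 13768 genes. The median was 0.42 (0.02 over all genes) and 56 were above 0 (51.3% of all genes were). At an unadjusted p under 0.05 in edgeR, 17 were higher and 0 lower, against 6.35% and 7.63% of all genes. Ccne2 (1.51, adjusted p = 0.258) and Rpa1, the large subunit of the complex that holds Rpa2 (0.78, adjusted p = 0.272), had the smallest p values there.

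**Figure D5:**
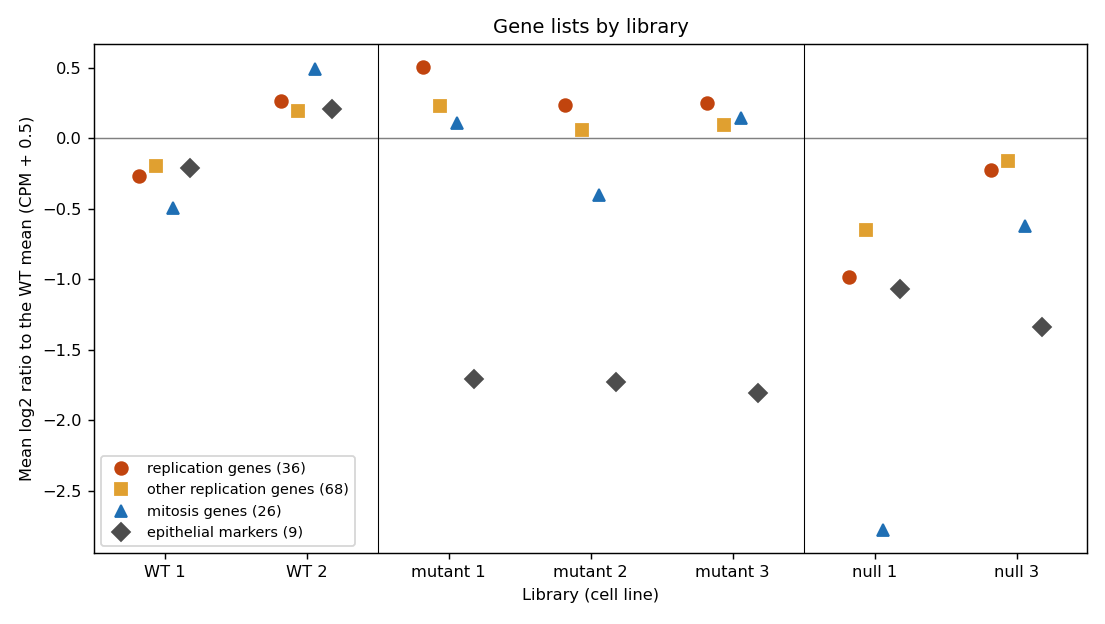
Mean log2 ratio to the WT mean (CPM + 0.5) in each cell line for the 36 replication genes, the 68 other replication genes, 26 mitosis genes and 9 epithelial markers. In null 1 the means are -0.99 for the replication genes, -0.65 for the other replication genes and -2.78 for the mitosis genes. The mean of the epithelial markers is below WT in all 5 mutant and null lines, though single markers differ.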

How the data were processed

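Polyadenylated RNA of 7 mouse esophageal cell lines was sequenced, and the authors deposited unnormalized gene counts as a table of 24047 names. STAR 2.5.1b and the build mm9 are named per the submitters' processing notes. No counting tool, strand setting or annotation is named (not given in the sources used here). The 92 spike-in names held 0 counts and were left out, and 27 names in date form were kept and not named. Groups and line numbers came from the sample titles. Libraries of a group differed by 58.8 to 247.8 times the sampling noise (chi-square over its degrees of freedom), so each was counted as its own sample.

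Counts were tested in R 4.3.3 with edgeR 4.0.16 (limma 3.58.1), using the quasi-likelihood F test in its default form, TMM factors, edgeR's own low-count filter (13768 genes kept) and Benjamini-Hochberg adjustment at 0.05. All 7 libraries entered one fit (4 residual degrees of freedom, common biological coefficient of variation 0.485). SEs were derived from the fold change and F statistic. CPM are counts scaled by library size and TMM factor, and ratios to WT used a pseudocount of 0.5 CPM. Tested on simulated data with 13768 genes, the model found 2, 0 and 2% of 2-fold changes and 58, 40 and 49% of 4-fold changes in mutant against WT, null against WT and mutant against null, with 3, 2 and 4 false calls. A missing call therefore does not show that a gene did not differ.

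The members and lists were chosen with earlier results of these data known. Values in every library are given for members called, for the member with the smallest p of each role and for the highest and lowest fold changes, and for other replication genes that were called or had the 2 smallest p values. Cdc6, Rpa2, Mcm5, Lig1 and other values beyond that rule were chosen after their values were seen. Promoter sequences came from RefSeq on GRCm38.p6 and exon overlaps from GENCODE vM21. Other settings tried were DESeq2 1.42.0 and limma-voom, the newer quasi-likelihood form, upper-quartile and RLE factors, dropping the filter or asking for 5 CPM in at least 2 libraries, a replicate block, separate fits per comparison and leaving out each library.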

Additional observations from a re-analysis of the deposited data

How the results depend on the processing

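With 2 or 3 lines a group, counts of calls moved with the method and with single libraries. Over the 36 members and 16 alternatives, 19, 16 and 4 of 576 fits turned in direction in mutant against WT, null against WT and mutant against null, among 12, 9 and 3 members. Of 336 refits of single named genes, 288 kept their direction and side of the threshold, 26 lost a call, 21 gained one and 1 turned: Msh6 in mutant against null ranged from -0.29 (without null 3) to 0.061 (without null 1). DESeq2 called 3187, 1514 and 590 genes, 9, 8 and 8 members and 11, 7 and 4 other replication genes in mutant against WT, null against WT and mutant against null. Fitting only the groups compared called 5 members and 1521 of 13425 genes in mutant against WT. In null against WT, limma-voom called 0 genes, the newer quasi-likelihood form 55 and no filter 77. In mutant against null, RLE factors, upper-quartile factors, the newer quasi-likelihood form and the 5 CPM filter each called 1 gene and no filter 2. Upper-quartile factors ended the call of Dctd (adjusted p = 0.05003). The cause of these differences was not tested.

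Leaving out each library in turn, mutant against WT had 0 (without WT 1 or WT 2) to 1420 genes called (37 without mutant 2, 6 without mutant 3), 0 to 4 members called, 0 to 6 other replication genes called, a median of 0.04 (without WT 1) to 0.52 (without WT 2), 18 to 30 members above 0 and 16 to 25 members wholly above WT. Null against WT had 0 to 55 genes called, 0 members and 0 other replication genes called, a median of -0.92 to -0.28, 4 (without null 3) to 13 (without WT 2) members above 0 and 17 to 29 members wholly below WT. Mutant against null had 0 to 22 (without null 3) genes called, 0 members and 0 other replication genes called, a median of 0.59 to 1.32, 34 to 35 members above 0 and 28 to 35 members wholly above null. Leaving out libraries for the counts of members that did not overlap was chosen after the data were seen. A group left with 1 line was assumed to vary like the others.

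The labels do not say that equal line numbers mark a shared animal or day. Correlations of deviations from the group mean were -0.36 to 0.149 for same-numbered lines and -0.39 to 0.39 for the others. In a group of 2 lines the deviations mirror each other, so these correlations cannot show whether lines were paired. WT 1 lay below WT 2 for 35 of 36 members, and null 1 below null 3 for 35 of 36. With a replicate block 0 genes, 0 members and 0 other replication genes were called in mutant against WT, and 0 genes in null against WT. Under this block the members' medians were 0.24, -0.61 and 0.91 in mutant against WT, null against WT and mutant against null, and Slbp was at 1.20 (adjusted p = 0.125).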

Other observations

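Replication-dependent histone genes, whose mRNAs the Slbp protein binds, lack a poly(A) tail in their usual form, and these were poly(A) libraries. Of 68 histone cluster gene names in the table, 6 passed the expression filter and none was called by edgeR in any comparison (in mutant against WT 0 were higher and 2 lower at an unadjusted p under 0.05). The summed level of all 68 names was 68.7 and 61.4 CPM in WT 1 and WT 2, 36.2, 41.0 and 29.2 CPM in the mutant lines and 58.5 and 55.1 CPM in null 1 and null 3. The mutant lines, in which Slbp was highest, thus had the lowest summed histone level of the 7 libraries. Most of each sum came from Hist1h2bc, Hist1h1c and Hist3h2a, so it does not describe the whole family. Of the 6 tested names, 5 were below 0 in mutant against WT, 3 of them wholly below WT, and Hist2h2be was level (log2 fold change 0.08). Whether these reads come from tailed histone transcripts was not tested.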
